A study of Mus musculus with 20 samples.

Results

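The genes described here are 37 interferon-stimulated antiviral effectors, chosen by symbol from a list. The list leaves out the Ifit, Oas, Schlafen, guanylate-binding protein and immunity-related GTPase families. It was drawn up with earlier results of these data known. All 37 were among the 24421 genes of the count tables, and all 37 passed the filter on low counts that left 12132 genes for testing. Bulk RNA was sequenced from bone marrow-derived macrophages (BMDM), grown from the marrow of 5 mice in medium conditioned by L929 cells, a fibroblast line that secretes the macrophage growth factor CSF-1. Cells of each mouse were kept for 48 h with the lipoparticle alone (LP), with either single formulation (LP PIC, LP 3M) or with the dual one (LP 3M PIC), so that each of the 4 conditions held 5 libraries, 20 in all. The labels give no genotype, strain, age or sex of the mice and no untreated cells, and they do not spell out the codes PIC and 3M or give an amount. Every comparison of the dual with a single formulation therefore assumes equal amounts of each adjuvant in both, which could not be checked.

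Type I interferons bind the receptor IFNAR, which through the kinases JAK1 and TYK2 activates a complex of transcription factors. The complex binds the interferon-stimulated response element (ISRE) near the start of its target genes. The products of those genes block viruses at many steps: entry through membranes, the supply of nucleotides, the stability and translation of viral RNA, protein modification and release of particles. In macrophages the pathway can be started by sensors of foreign RNA and DNA, which induce the interferon beta gene.

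Gene counts ran from 9.74 to 23.87 M per library with a median of 22.75 M, so that a floor of 3 counts stood at 0.126 to 0.308 CPM and every member lay above it in LP PIC and in the dual formulation. CPM, the gene's count scaled to a library total of 1000000 without further normalisation, is the level used below, with the SD over 5 mice. Such floors cover counting error only, since reads that carry no molecular identifier can stem from the same molecule. Macrophage markers were present throughout (8 of 8 found, summed level 11350 to 26958 CPM), and the T and NK cell markers were each under 1 CPM with Cd3e, Cd3g, Cd8a and Ncr1 at 0. Granulocyte markers (8 of 9 found) summed to 2.16 to 10.5 CPM in LP, 14.8 to 70.3 in LP PIC, 72.9 to 609 in LP 3M and 203 to 3810 in the dual formulation. In the dual formulation Lcn2 (192 to 3273 CPM) and S100a8 (3.35 to 536) held most of that sum, while S100a9, Elane and Mpo stayed under 1 CPM in every library. Dendritic cell markers (6 of 6 found) summed to at most 0.223 CPM in LP and 0.796 in LP 3M, to 1.27 to 7.06 in LP PIC and to 6.24 to 46.2 in the dual formulation, most of it in the conditions with PIC from Ccr7, with the other 5 markers under 1 CPM throughout. Fibroblast markers summed to 14.9 to 63.6 CPM in LP, 24.3 to 72.0 in LP PIC, 29.7 to 87.1 in LP 3M and 26.5 to 106 in the dual formulation. Among them Dcn was at most 3.15 CPM in LP and up to 73.9 in the dual formulation. Col1a1 and Col1a2 went the other way, with ranges that overlapped. Their highest values were 33.0 and 28.2 CPM in LP and 16.6 and 13.85 in the dual formulation. Col3a1 was at most 2.41 CPM and Pdgfra under 1 CPM in every library. The part of these markers in the results below was not tested. In bulk RNA, fewer cells of a type and less RNA per cell cannot be told apart.

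Promoters of 5 members are shown because the results below turn on these genes. Isg15, Rsad2 and Bst2 rose with LP PIC and carry the core letters of the response element, Ms4a4c made the largest rise and has no match in its window, and Trim25 was the member that fell with LP 3M. Each line gives the 250 bases before the RefSeq start site (GRCm38.p6), 5′ to 3′ on the gene's strand, in lower case with matches to the core motif in capitals (GAAA, any 2 bases, GAAA, on either strand, overlapping matches merged).
Isg15 (chr4:156200819-156201068, minus strand): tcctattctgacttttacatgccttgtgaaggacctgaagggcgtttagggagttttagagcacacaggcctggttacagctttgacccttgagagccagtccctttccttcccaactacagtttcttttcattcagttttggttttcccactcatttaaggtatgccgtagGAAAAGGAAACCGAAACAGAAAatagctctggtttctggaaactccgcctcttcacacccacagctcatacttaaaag
Rsad2 (chr12:26456453-26456702, minus strand): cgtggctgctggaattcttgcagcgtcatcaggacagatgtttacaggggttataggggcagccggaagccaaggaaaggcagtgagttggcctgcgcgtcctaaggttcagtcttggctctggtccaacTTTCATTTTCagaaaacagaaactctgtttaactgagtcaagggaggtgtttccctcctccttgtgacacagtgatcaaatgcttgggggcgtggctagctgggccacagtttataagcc
Bst2 (chr8:71537473-71537722, minus strand): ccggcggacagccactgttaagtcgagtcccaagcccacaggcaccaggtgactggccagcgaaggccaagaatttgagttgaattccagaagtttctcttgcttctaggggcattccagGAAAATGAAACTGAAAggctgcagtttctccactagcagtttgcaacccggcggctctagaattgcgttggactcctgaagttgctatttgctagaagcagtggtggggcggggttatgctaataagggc
Ms4a4c (chr19:11407411-11407660, plus strand): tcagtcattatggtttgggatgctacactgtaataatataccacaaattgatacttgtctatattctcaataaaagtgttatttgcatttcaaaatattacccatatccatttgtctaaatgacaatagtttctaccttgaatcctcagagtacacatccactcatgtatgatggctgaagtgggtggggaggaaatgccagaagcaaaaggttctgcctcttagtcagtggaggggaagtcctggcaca
Trim25 (chr11:88999153-88999402, plus strand): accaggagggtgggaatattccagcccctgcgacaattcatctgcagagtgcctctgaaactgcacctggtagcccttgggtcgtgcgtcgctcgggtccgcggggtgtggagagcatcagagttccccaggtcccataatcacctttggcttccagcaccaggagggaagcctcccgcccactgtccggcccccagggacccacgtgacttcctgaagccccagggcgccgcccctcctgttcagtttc
The Isg15 window held 3 overlapping matches, 78 to 66 bases before the start. Bst2 held 2, at 130 and 124 bases, and Rsad2 held 1, at 120 bases. RefSeq and GENCODE place the start of Ms4a4c differently, so its window lies within the gene as GENCODE draws it.

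RefSeq's table held a promoter for 29 of the 37 members. In the window from 250 bases before to 50 after the start, 11 of these 29 (37.9%) had at least 1 match, against 3.95% of the 9292 tested genes with an entry. In the 250 bases before the start alone, as shown above, 7 of 29 (24.1%) had a match, against 3.4% of those tested genes. Eif2ak2, Ifitm3, Trim21 and Trim34a matched only after the start. The 11 were Apol9a, Apol9b, Bst2, Ddx60, Eif2ak2, Ifitm3, Isg15, Rsad2, Trim21, Trim30a and Trim34a. Their log2 changes with LP PIC ran from 0.42 to 4.55 with a median of 2.00, and those of the other 18 from 0.60 to 6.41 with a median of 1.22, so the ranges overlapped. A match is a run of letters and not a measured binding site.

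The effectors took a larger share of the transcriptome in the conditions with PIC. Together the 37 genes held 0.334 ± 0.103% of gene counts in LP, 0.396 ± 0.135% in LP 3M, 0.925 ± 0.239% in LP PIC and 0.946 ± 0.111% in the dual formulation (SD, n = 5). The summed level was 2299 to 4692 CPM over the LP libraries and 2724 to 5855 over those of LP 3M. It was 6513 to 12780.4 in LP PIC and 8080 to 10529 in LP 3M PIC, so the libraries with PIC lay above all of those without it. Per kilobase of exon, Ifitm3, a membrane protein that blocks viral fusion, had the highest level in every condition, at 572 ± 271 CPM per kb in LP, 806 ± 318 in LP 3M, 1691 ± 485 in LP PIC and 2051 ± 224 in the dual formulation. Bst2 came second in every condition (208 ± 94.0 CPM per kb in LP and 877 ± 265 in LP PIC) and Apol9a last (0.102 ± 0.0308 and 2.36 ± 1.85). The third place was held by Ifi27l2a in LP and LP 3M (162 ± 76.9 and 121 ± 68.4 CPM per kb) and by Isg15 in LP PIC and the dual formulation (395 ± 211 and 607 ± 161). In LP PIC, Isg15 and its next neighbour Ifi27l2a (297 ± 68.9) differed by less than the SD of Isg15.

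**Figure D1:**
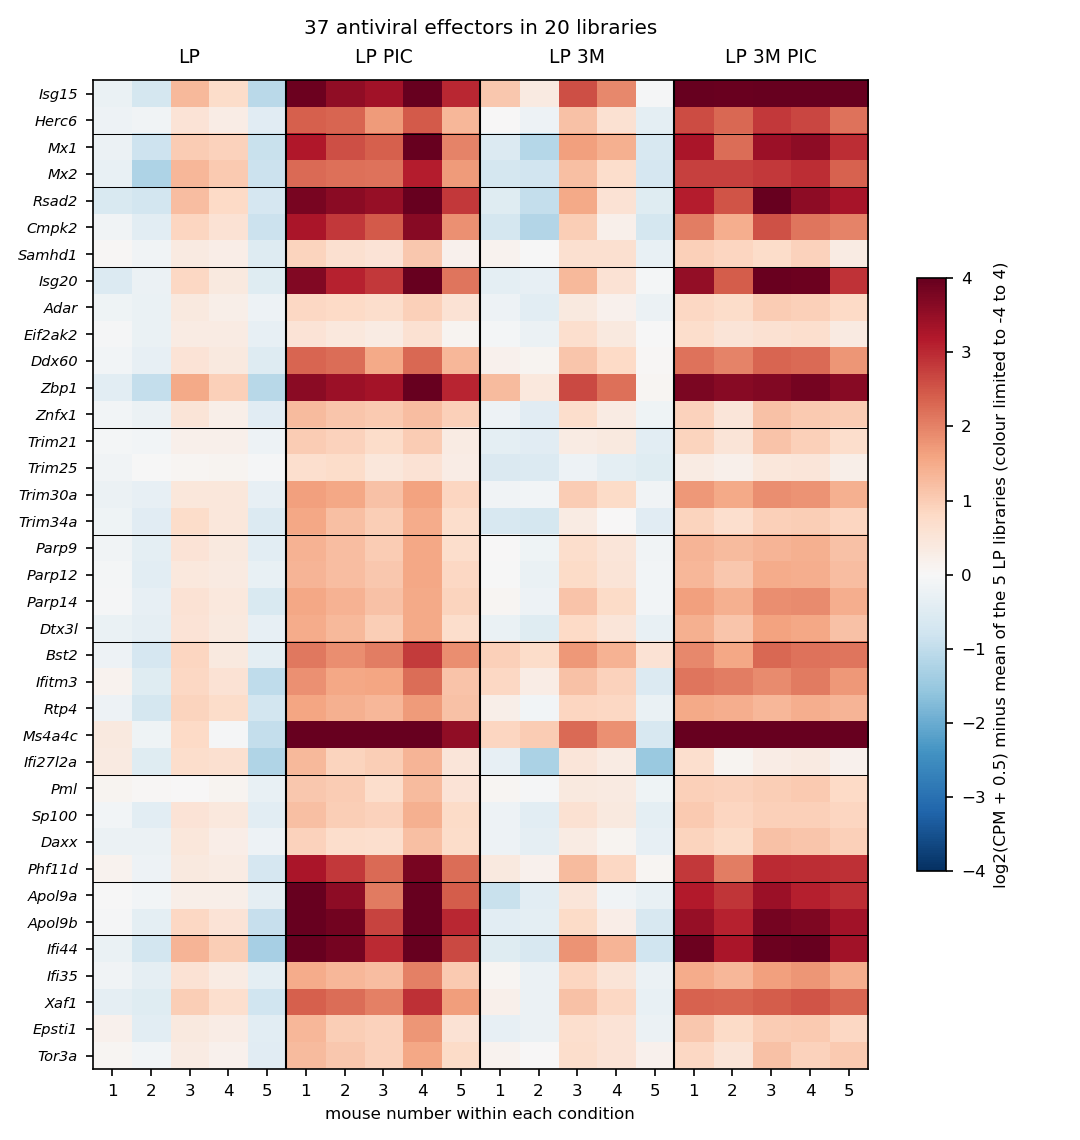
Colour shows log2(CPM + 0.5) of each of the 37 genes (rows, ordered by role) in each of the 20 libraries (columns, mouse 1 to 5 within each condition) minus the mean of the 5 LP libraries. The LP PIC and LP 3M PIC columns are red for nearly all genes, and within LP and LP 3M the columns of mice 3 and 4 are redder than those of the other mice.

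LP PIC against LP asks what the PIC formulation changed, and it raised almost the whole set. Of the 37 members 35 rose and 0 fell, against 22.7% of all tested genes called higher and 22.7% called lower (edgeR's quasi-likelihood test, Benjamini-Hochberg adjusted p under 0.05). The members were chosen with earlier results of these data known, so this contrast describes the set and is no independent test of it. The median log2 fold change was 1.38 over the members and −0.00 over all tested genes. Each of the 35 moved up in 5 of 5 mice, and for 33 members the 5 LP PIC libraries lay above all 5 LP libraries, which held for 14.7% of all genes. Samhd1 and Trim34a were called although their libraries overlapped. With mouse as a block all 37 were called, against 25% of all genes called higher.

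Both members that act through ISG15, a ubiquitin-like protein joined to other proteins, rose with LP PIC. Isg15 itself stood at 16.6, 12.1, 50.5, 34.1 and 9.20 CPM in LP of mice 1 to 5 and at 314, 239, 209, 567 and 165.5 in LP PIC. It stood at 42.5, 25.6, 122, 76.98 and 19.6 CPM in LP 3M and at 456, 320.1, 576, 583 and 357 in the dual formulation. All libraries with PIC lay above all libraries without it, and the rise with LP PIC was 3.63 ± 0.56 on the log2 scale (12.4-fold, adjusted p = 4.11e-05). Herc6, the main ISG15 ligase of the mouse, rose by 2.11 ± 0.30, from 43.2 ± 12.5 to 183 ± 56.5 CPM. About 12.5% of its 50-base stretches are shared with an overlapping transcript, so some of its reads are of uncertain origin.

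The Mx proteins, dynamin-like traps for viral nucleocapsids, both rose. Mx1 went from 12.6 ± 8.12 to 93.0 ± 62.5 CPM, a log2 change of 2.90 ± 0.60. Mx2 went from 7.10 ± 5.66 to 30.5 ± 12.5 CPM (2.09 ± 0.50). In both genes the LP level was highest in mice 3 and 4, and all LP PIC libraries lay above it.

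Of 3 genes that act on nucleotide pools all 3 rose. Rsad2 encodes viperin, which makes a chain-terminating nucleotide, and it went from 50.1 ± 34.5 to 533 ± 179 CPM (3.43 ± 0.53). Cmpk2, which encodes a mitochondrial nucleotide kinase and starts 12.8 kb from Rsad2 on chromosome 12 in the opposite direction, rose by 2.84 ± 0.44, from 31.1 ± 15.1 to 219 ± 99.4 CPM. Samhd1, which breaks down deoxynucleotides, was already at 300.3 ± 69.3 CPM in LP and rose by 0.71 ± 0.21 (adjusted p = 0.0115). Leaving out mouse 1 ended that call at an adjusted p of 0.0614, the highest among the alternatives, which began at 6.98e-05.

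Of 6 genes that sense, edit or degrade nucleic acids 5 rose. Isg20, an exonuclease for viral RNA, rose most, by 3.54 ± 0.50 from 4.00 ± 1.98 to 45.8 ± 29.5 CPM. Zbp1 (chr2:173206612-173218923, GENCODE M21), a sensor of Z-form nucleic acids that can start necroptosis, stood at 17.6, 12.1, 68.6, 47.0 and 10.9 CPM in LP of mice 1 to 5 and at 297.5, 260.2, 246, 435 and 201 in LP PIC. Its libraries did not overlap, and it rose by 3.22 ± 0.54 (9.30-fold). Ddx60, a helicase cofactor of RNA sensing, rose by 2.00 ± 0.27. Znfx1, an RNA-binding helicase of the mitochondrial surface, rose by 1.12 ± 0.21 and Adar, the double-stranded RNA editor, by 0.79 ± 0.15. Part of Adar's exons (16.8%) overlaps Chrnb2 on the other strand, and the strand setting of the counting is not given in the sources used here.

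The member of this group that was not called was Eif2ak2 (chr17:78852564-78882573), the kinase PKR that halts translation on sensing double-stranded RNA. Its level was 71.2, 60.7, 92.8, 93.4 and 58.3 CPM in LP and 108, 98.0, 92.3, 112 and 79.7 in LP PIC. The groups overlapped, and mouse 3 was the mouse that was not higher with LP PIC. The log2 difference was 0.42 ± 0.17 (adjusted p = 0.0577, falling to 0.00396 once mouse was a block; the alternatives spanned 0.00396 to 0.193). It also passed by DESeq2 (0.0445), with only LP and LP PIC in the fit (0.047) and without mouse 3 (0.0172).

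All 4 TRIM proteins, which are ubiquitin ligases or close relatives, rose by moderate amounts. Trim30a rose by 1.38 ± 0.25 from 101 ± 29.7 to 257 ± 55.4 CPM, and Trim21, a receptor for antibody-coated virus inside the cell, by 0.87 ± 0.18. Trim34a rose by 1.17 ± 0.25, but 39.8% of its 50-base stretches are shared with Trim34b and other transcripts, so its counts may be split. Trim25, the ligase that modifies the RNA sensor RIG-I, had the smallest called rise of the 37 members, 0.60 ± 0.09, or 1.51-fold. Its spread between mice was also the smallest in LP, where it stood at 304.5, 334, 358, 367 and 327 CPM, against 539, 561.5, 464, 500.5 and 418.5 in LP PIC, with no overlap.

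The 4 ADP-ribosylation genes rose by nearly the same factor, with log2 changes from 1.19 to 1.29. Parp14 was the most abundant by CPM and went from 203 ± 68.7 to 484 ± 88.0 CPM. Parp9 and its partner ligase Dtx3l rose by 1.19 ± 0.22 and 1.21 ± 0.26. These neighbours overlap on opposite strands over 458 bases of exon, so reads in that stretch are uncertain. Parp12, which binds viral RNA through zinc fingers, rose by 1.23 ± 0.21.

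Of the 5 genes grouped as membrane proteins 4 rose, with the largest change of the set among them. Ms4a4c (chr19:11404770-11427246), a membrane-spanning protein of the MS4A family, stood at 2.40, 1.437, 3.31, 1.65 and 0.626 CPM in LP of mice 1 to 5 and at 211, 139, 36.6, 387 and 25.4 in LP PIC. All LP PIC libraries lay above all LP libraries, yet within LP PIC mice 3 and 5 were far below the rest. The rise was 6.41 ± 0.81 on the log2 scale (85.1-fold, adjusted p = 4.61e-06), and 8.19% of the gene's 50-base stretches are shared with relatives such as Ms4a4b. Bst2 encodes tetherin, which holds budding virus at the cell surface, and it rose by 2.11 ± 0.30. Ifitm3 rose by 1.60 ± 0.34 from 388 ± 184 to 1147 ± 329 CPM, with 10.02% of its 50-base stretches shared with Ifitm1 and other transcripts. Rtp4, a chaperone of receptor transport, rose by 1.32 ± 0.30.

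Ifi27l2a (chr12:103442167-103443680), a small membrane protein, was the other member not called. It stood at 84.7, 47.2, 109, 104 and 28.4 CPM in LP and at 164, 125, 131, 173 and 94.1 in LP PIC. Every mouse was higher with LP PIC but the groups overlapped, because the LP level varied several-fold between mice. The log2 difference was 0.91 ± 0.38 (adjusted p = 0.0566). The alternatives spanned 0.00298 to 0.143 and passed the threshold with the mouse block, by DESeq2 (0.0473), without mouse 3 (0.0423) and without the LP 3M library of mouse 5 (0.0377).

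The 4 genes of nuclear bodies and chromatin rose. Phf11d, a PHD finger protein of a mouse gene cluster, led them with 3.02 ± 0.33, from 24.1 ± 6.88 to 189.9 ± 91.9 CPM. Pml, the scaffold of the nuclear bodies that silence viral genomes, rose by 1.00 ± 0.13. Its partners Sp100 and Daxx rose by 1.06 ± 0.23 and 0.86 ± 0.17.

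Both apolipoprotein L genes rose from very low levels. Apol9a (chr15:77403789-77411135) stood at 0.589, 0.513, 0.785, 0.784 and 0.358 CPM in LP, from 5 to 18 counts per library, and at 16.7, 12.4, 4.12, 31.5 and 5.42 in LP PIC. Mouse 4 was highest in LP PIC and mice 3 and 5 lowest, and no LP library reached them. The rise was 4.55 ± 0.54 (23.4-fold, adjusted p = 2.15e-06). Apol9b rose by 4.28 ± 0.50, from 1.40 ± 0.883 to 27.3 ± 17.7 CPM. The genes share sequence: 52.3% of the 50-base stretches of Apol9b and 16.5% of those of Apol9a occur in other transcripts, mostly each other's, so the split of reads between them is uncertain.

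The remaining 5 members all rose. Ifi44, named for its induction by interferon, rose by 3.54 ± 0.62 from 12.1 ± 9.37 to 141 ± 77.5 CPM, and Xaf1, a promoter of apoptosis, by 2.18 ± 0.36. Ifi35 rose by 1.45 ± 0.25, Epsti1 by 1.18 ± 0.24 and Tor3a, a torsin of the endoplasmic reticulum, by 1.16 ± 0.18.

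**Figure D2:**
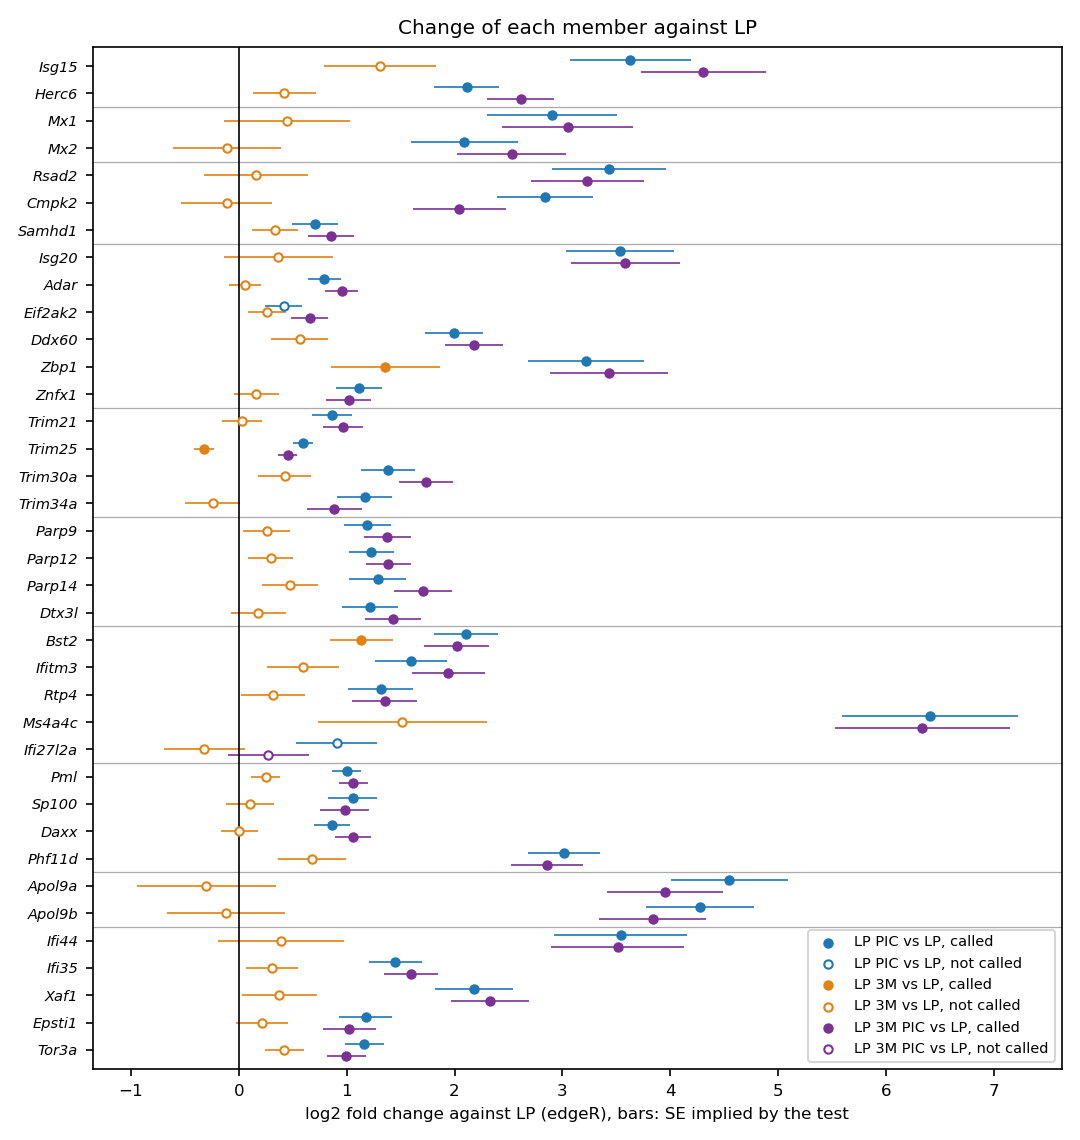
Points give the log2 fold change of each of the 37 members (rows) against LP for LP PIC (blue), LP 3M (orange) and LP 3M PIC (purple), with bars for the SE implied by the test; filled points were called and open points were not. Blue and purple points lie together on the right for most genes, up to 6.41 and 6.34 for Ms4a4c, while orange points lie between −0.33 and 1.52.

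LP 3M against LP asks what the other single formulation changed. Few members were called by the main fit, which leaves out the pairing by mouse, and more were called with mouse as a block. Of the 37, 2 rose (20% of all tested genes were called higher) and 1 fell (19.5% were called lower). The median log2 difference was 0.29 over the members and −0.01 over all genes, with 30 members above 0 and 7 below. In plain CPM the 5 LP 3M libraries lay above all LP libraries for 0 members (10% of all genes) and below them for 1, Trim25 (19.4%). That separation of Trim25 does not hold after the library scaling of the test, as given below. With mouse as a block 10 members were called higher (22.6% of all genes) and 1 lower (23.2%). The block added Ddx60, Ifitm3, Isg15, Parp14, Phf11d, Pml, Samhd1 and Tor3a to the calls. Without the LP 3M library of mouse 5, 4 were called higher, with Ifitm3 and Isg15 added.

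Bst2 (chr8:71534255-71537456) was the clearer of the 2 rises. It stood at 153, 109, 318, 228 and 134 CPM in LP of mice 1 to 5 and at 341, 292, 584.5, 457 and 259.9 in LP 3M. Each mouse was higher with LP 3M, but the LP library of mouse 3 lay above the LP 3M libraries of mice 2 and 5. The rise was 1.14 ± 0.29 (2.20-fold, adjusted p = 0.00473; 5.91e-05 to 0.0286 over the alternatives). Zbp1 went to 58.4, 32.3, 151, 112 and 25.3 CPM in LP 3M, higher in 5 of 5 mice with overlapping groups, a rise of 1.36 ± 0.51 (adjusted p = 0.0408). That call was lost without mouse 1, 2 or 4 and without the LP library of mouse 2 (adjusted p = 0.122, 0.0678, 0.106 and 0.0898). It was also lost without the low-count filter and with only LP and LP 3M in the fit (0.00712 to 0.137 over the alternatives).

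Trim25 (chr11:88999376-89020293) was the member that fell. It stood at 228, 232.5, 291.5, 259 and 241.5 CPM in LP 3M, in plain CPM below every LP library and lower in 5 of 5 mice. The test also scales libraries (TMM), with a factor of 1.05 for LP of mouse 1 and 0.965 for LP 3M of mouse 3. After division by these factors the LP 3M value of mouse 3 lies above the LP value of mouse 1, so the groups overlap. The fall was small, with a log2 change of −0.33 ± 0.09 (adjusted p = 0.00855; 0.00157 to 0.0407 over the alternatives). In LP PIC the same gene rose, as given above.

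Several members that were not called with LP 3M had values above those in LP. Ms4a4c, at 3.52, 4.00, 10.2, 7.26 and 0.916 CPM in LP 3M, was higher in 5 of 5 mice with a difference of 1.52 ± 0.79 (adjusted p = 0.135). Isg15 was higher in 5 of 5 mice by 1.31 ± 0.52 (adjusted p = 0.0528, 0.00389 under the mouse block, 0.0436 by DESeq2 and 0.0217 without the LP 3M library of mouse 5; the alternatives reached 0.137). Rsad2, Cmpk2, Mx2, Apol9a and Apol9b had log2 differences from −0.30 to 0.16, each smaller than its SE of 0.42 to 0.65.

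The dual formulation against LP, a comparison that shares the 5 LP libraries with both above, raised nearly all members. Of the 37 members 36 rose and 0 fell (31.7% of all genes were called higher and 30.6% lower), with a median log2 change of 1.71 against 0.02 over all genes. For 33 members the 5 dual libraries lay above all LP libraries (17.7% of all genes). The largest rises were those of Ms4a4c, at 236, 121, 147, 161 and 59.1 CPM (6.34 ± 0.81), and of Isg15 (4.31 ± 0.58, 19.8-fold). Apol9a, at 9.37, 7.35, 11.2, 8.89 and 8.03 CPM, rose by 3.95 ± 0.54, with an SD of 1.46 CPM in place of 11.03 in LP PIC. Zbp1, at 328, 301, 315, 347 and 305.5 CPM, rose by 3.43 ± 0.55. Eif2ak2, at 119, 106.5, 113, 119 and 93.8 CPM, lay above every LP library in all 5 and rose by 0.66 ± 0.17 (adjusted p = 0.00292). Ifi27l2a was the member not called: at 105, 72.4, 82.7, 86.2 and 75.6 CPM it overlapped LP, was higher in 3 of 5 mice and differed by 0.27 ± 0.37 (adjusted p = 0.543).

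**Figure D3:**
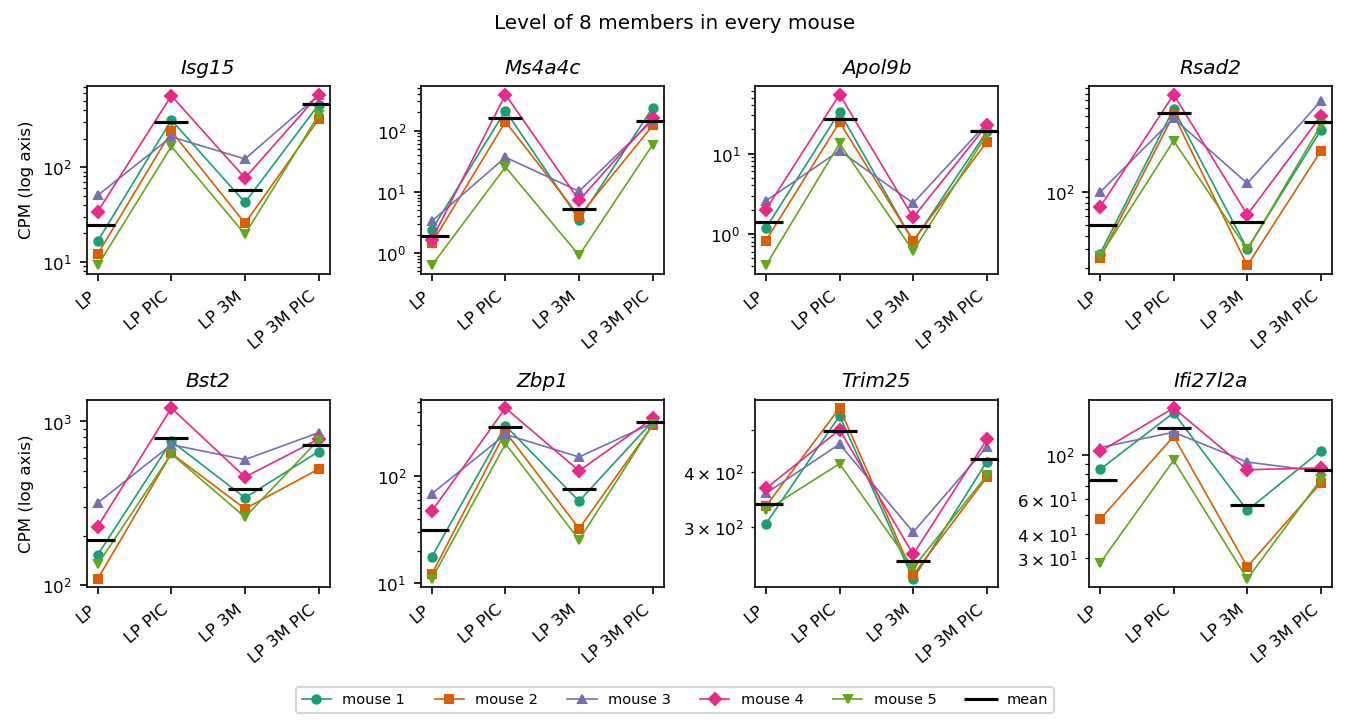
CPM on a log axis of 8 members in the 4 conditions, with 1 line and marker per mouse (5 mice) and a bar for the mean. The levels of Isg15, Ms4a4c, Apol9b, Rsad2 and Zbp1 in both conditions with PIC lie above those in LP and LP 3M, Trim25 is lowest in LP 3M, and Ifi27l2a overlaps between LP and the dual formulation.

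LP 3M PIC against LP PIC asks what adding 3M to the PIC formulation changed, and no member was called. The count was 0 higher and 0 lower, where 23.1% of all tested genes were called higher and 21.4% lower. At an unadjusted p under 0.05 the count was also 0 of 37, against 52.3% of all genes, and DESeq2 likewise called 0. Both fits left out the pairing by mouse. With mouse as a block, 6 of 37 members had an unadjusted p under 0.05, against 56.0% of all genes. The log2 differences ran from −0.80 for Cmpk2 to 0.68 for Isg15, 22 above 0 and 15 below, with a median of 0.10. For 0 members did the libraries of the conditions separate in either direction (10.2% of all genes separated upward and 14.2% downward). The median SE of a member's difference was 0.26, and a missing call does not show that the levels were equal.

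Differences close to the threshold went in both directions. With mouse as a block Parp14 was called higher and Cmpk2 lower (25% of all genes called higher and 24.8% lower). Parp14 was higher in 5 of 5 mice, at 562, 504, 435, 561 and 357 CPM in LP PIC and 611, 521, 709, 713 and 537 in the dual formulation (0.42 ± 0.26, adjusted p = 0.194, 0.0423 under the block and 0.0402 with only these 2 conditions in the fit; the alternatives reached 0.302). Cmpk2 was lower in 3 of 5 mice, at 274, 204, 158, 356 and 102 CPM in LP PIC and 117, 77.5, 168, 127 and 114 in the dual formulation (−0.80 ± 0.41, adjusted p = 0.126, 0.0375 under the block; the alternatives reached 0.388). Without mouse 3, Cmpk2 was called lower as well (adjusted p = 0.0411). Ifi27l2a was lower in 5 of 5 mice (−0.63 ± 0.37, adjusted p = 0.178) and was called lower with only these 2 conditions in the fit (adjusted p = 0.0115; the alternatives reached 0.359).

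LP 3M PIC against LP 3M asks what adding PIC to the 3M formulation changed. Of the 37 members 34 rose and 0 fell (20.5% of all genes were called higher and 21% lower), with a median log2 change of 1.25 against 0.01 over all genes. For 31 members the libraries did not overlap (12.2% of all genes). Ms4a4c (4.82 ± 0.73) and Apol9a (4.26 ± 0.55) rose most, the latter from 0.0838, 0.318, 1.04, 0.502 and 0.392 CPM in LP 3M. Trim25 rose from its low level in LP 3M to 423, 389.7, 457.5, 476 and 393.5 CPM (0.78 ± 0.09). Samhd1 (0.52 ± 0.21, adjusted p = 0.0595), Eif2ak2 (0.40 ± 0.17, adjusted p = 0.075) and Ifi27l2a (0.59 ± 0.38, adjusted p = 0.217) were not called, while under the mouse block all 37 were, with adjusted p of 0.000908, 0.00608 and 0.0182 for these genes (23.2% of all genes were then called higher). Samhd1 was also called by DESeq2 (0.0365) and without mouse 3 or 5 (0.0458 and 0.0272), and Eif2ak2 without mouse 3 (0.0191). The rise of Bst2 (0.88 ± 0.29, adjusted p = 0.0205) was lost without mouse 1, mouse 5 or the LP 3M library of mouse 5, and those of Epsti1 and Tor3a without mouse 1 (adjusted p up to 0.0859, 0.0757 and 0.0628).

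Set against each other, the single formulations differed in most members. With LP 3M, 35 of 37 members were lower than with LP PIC and 0 higher (22.7% of all genes were called lower and 24.4% higher), with a median log2 difference of −1.03 against −0.01 over all genes. For 29 members the libraries did not overlap (18.1% of all genes). Ms4a4c (−4.89 ± 0.73) and Apol9a (−4.85 ± 0.55) differed most. Eif2ak2, at 69.5, 63.1, 118, 97.7 and 72.5 CPM in LP 3M, was not called (−0.15 ± 0.17, adjusted p = 0.486). Samhd1 was not called either (−0.37 ± 0.21, adjusted p = 0.167), except under the mouse block (adjusted p = 0.00997; the alternatives reached 0.39). Ifi27l2a, at 52.5, 27.2, 92.3, 84.4 and 23.6 CPM in LP 3M, was lower in 5 of 5 mice (−1.23 ± 0.38, adjusted p = 0.0128), a call that ended at 0.059 when mouse 1 was left out. The call of Ifitm3 was lost without mouse 1, 2 or 4 (adjusted p = 0.0566, 0.0517 and 0.0779), that of Parp14 without mouse 1 or 2 (0.0924 and 0.0625) and that of Bst2 without mouse 4 (0.0597).

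The interaction, the log2 effect of PIC on top of LP 3M minus its effect on top of LP, asks whether the dual formulation differed from the sum of the single changes. It called 0 of 37 members in either direction (3.82% of all genes were called higher and 4.62% lower). An unadjusted p under 0.05 was found for 2 members, against 23.8% of all genes, and with mouse as a block for 4, against 29.2%. Estimates were below 0 for 30 members and above 0 for 7, with a median of −0.25 against 0.00 over all genes. The lowest p belonged to Bst2, at −1.22 ± 0.41 (adjusted p = 0.0732). Bst2 was called with mouse as a block (adjusted p = 0.00429), without mouse 3 (0.0359), without the LP 3M library of mouse 5 (0.0493) and by DESeq2 (0.0236), within 0.00429 to 0.255 over the alternatives. Tor3a was called with the block alone (−0.59 ± 0.25, adjusted p = 0.162, then 0.0495; up to 0.437 over the alternatives), where 7.85% of all genes were called lower. The measured levels of Bst2 show the form of this difference: 757, 638, 721, 1208 and 634 CPM in LP PIC and 655, 512, 854, 781 and 773.5 in the dual formulation, overlapping, while with LP 3M alone Bst2 was higher than with LP in 5 of 5 mice.

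In the conditions without PIC, the same mice had the highest effector levels for almost every member. In LP, mouse 3 was the highest of the 5 for 34 of 37 members (13.8% of all tested genes), and mice 3 and 4 were the top pair for 35 (12%). In LP 3M these mice were the top pair for 37 of 37 members (11% of all genes). In LP PIC they were for 0 (6.78%): there mouse 4 was highest for 30 members, mouse 5 lowest for 34, and mouse 3 took a middle or low place. In the dual formulation mice 3 and 4 were the top pair for 26 members (12.4%). The mouse identifiers in the labels consist of digits for mice 3 and 4 and start with a letter for the other 3 mice, and the labels say nothing else that tells the mice apart.

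Within mice, the change from LP to LP PIC was smallest in mouse 3. The median difference in log2(CPM + 0.5) over the 37 members was 1.75, 1.89, 0.70, 1.49 and 1.71 in mice 1 to 5, and mouse 3 had the smallest difference for 36 members. The same LP library of mouse 3 that was high enters this difference. From LP PIC to the dual formulation the medians were −0.07, −0.19, 0.41, −0.25 and 0.41. In mice 3 and 5 the difference was above 0 for 34 and 35 members, and in mice 1, 2 and 4 for 13, 11 and 7. Over all tested genes the median difference lay between −0.14 and −0.01 and was above 0 for 37.5 to 48.4% of genes.

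**Figure D4:**
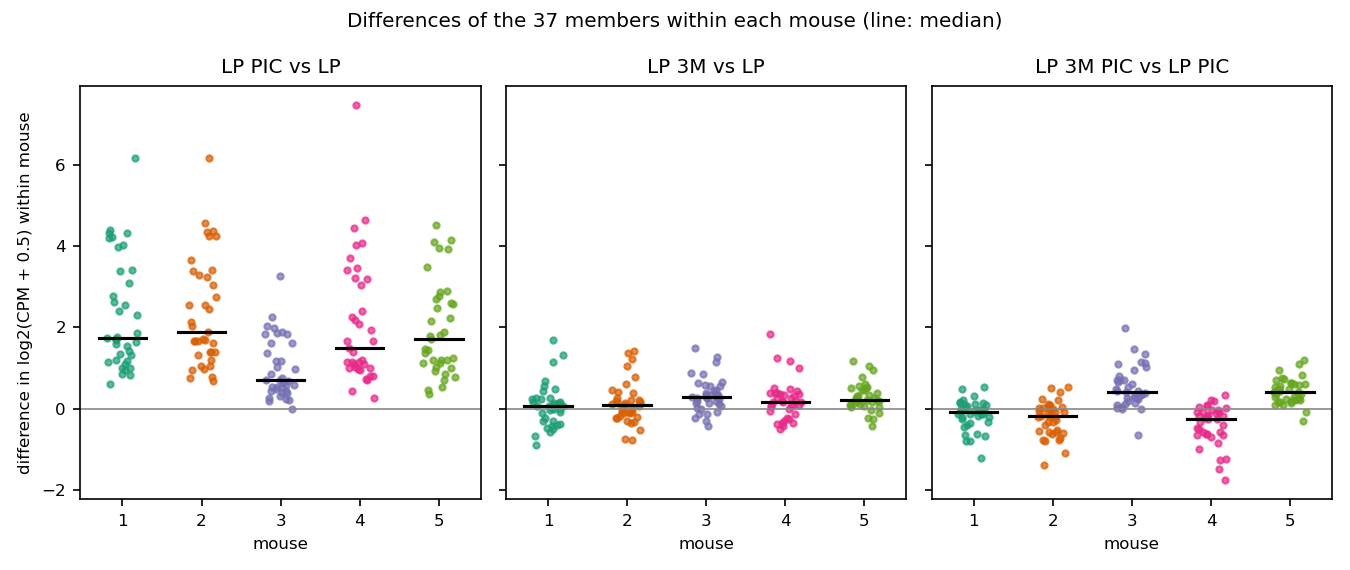
Each point is the difference in log2(CPM + 0.5) of 1 member within 1 mouse, for LP PIC minus LP, LP 3M minus LP and LP 3M PIC minus LP PIC, with a line at the median of the 37 members. For LP PIC minus LP mouse 3 sits lowest (median 0.70), and for LP 3M PIC minus LP PIC mice 3 and 5 sit above 0 and the other mice near or below it.

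Levels were most alike between mice under the dual formulation. The median SD over 5 mice of log2(CPM + 0.5) was 0.45 in LP, 0.51 in LP 3M, 0.36 in LP PIC and 0.22 in LP 3M PIC, against 0.15, 0.17, 0.18 and 0.19 over all tested genes. The SD was larger than in the dual formulation for 33 members in LP, 37 in LP 3M and 35 in LP PIC, where 39.5, 41.3 and 45.4% of all genes had the larger SD. Rtp4 was the most even of the members in the dual formulation (SD 0.07) and Ms4a4c the least (0.73). The highest mouse exceeded the lowest by a median of 2.05-fold in LP, 2.25-fold in LP 3M, 1.91-fold in LP PIC and 1.45-fold in the dual formulation. These spreads are a description and were not tested.

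**Figure D5:**
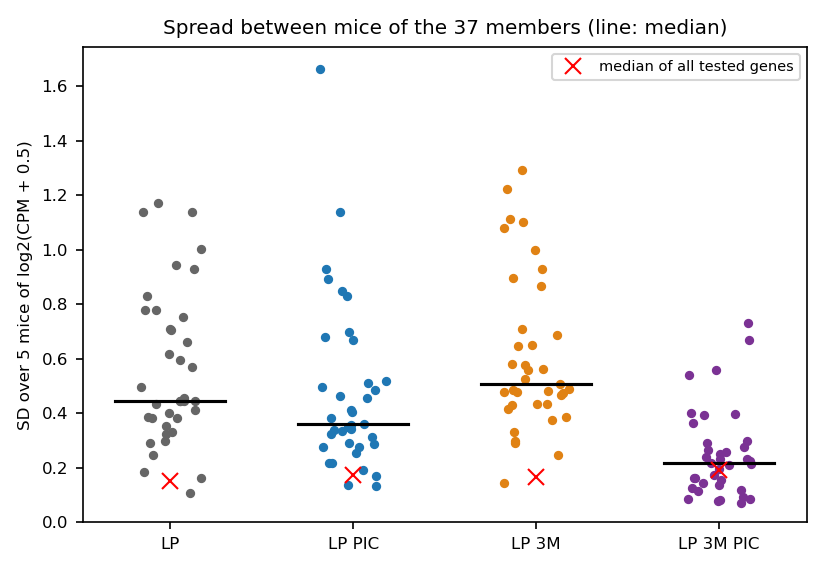
Each point is the SD over 5 mice of log2(CPM + 0.5) of 1 member in 1 condition, with a line at the median of the 37 members and a red cross at the median of all tested genes. The members' median falls from 0.45 in LP and 0.51 in LP 3M to 0.22 in LP 3M PIC, next to the cross at 0.19.

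Other genes of the pathway were taken from a list of 15, all of which were tested: 13 of interferon signalling and 2 further enzymes of the ISG15 cycle. This list too was chosen with earlier results of these data known. With LP PIC 14 of 15 rose (22.7% of all genes), with the dual formulation 13 (31.7%) and with LP 3M 4 (20%). Against LP 0 of the 15 fell in any of these, where 22.7, 30.6 and 19.5% of all genes were called lower. The call of Irf3 with LP PIC (0.16 ± 0.06) was lost under 7 alternatives, among them without mouse 1, 2, 4 or 5 or the LP library of mouse 2 (adjusted p up to 0.131). That of Jak1 (0.17 ± 0.06) was lost under 5, among them without mouse 1, 2, 3 or 4 (up to 0.141), and that of Tyk2 (0.52 ± 0.18) under 4, without mouse 1, 4 or 5 or the LP library of mouse 2 (up to 0.0896). Ifnb1, the interferon beta gene, was at 0 in all LP 3M libraries and at most 0.0435 CPM in LP, under the floor of 3 counts. It stood at 1.19, 1.64, 0.788, 1.63 and 0.23 CPM in LP PIC and at 2.69, 6.33, 0.877, 1.31 and 1.75 in the dual formulation, above every library without PIC. Its difference between those 2 conditions was 1.32 ± 0.52 (adjusted p = 0.0509, then 0.0197 under the mouse block and 0.026 without the dual library of mouse 3; up to 0.212 over the alternatives). Irf7, the interferon-inducible factor that amplifies interferon production, was at 108, 81.2, 497, 311 and 75.3 CPM in LP, again highest in mice 3 and 4, and rose by 2.62 ± 0.57 with LP PIC and 2.42 ± 0.56 with the dual formulation.

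Within the signalling chain, Ifnar1 was not called with LP PIC (0.19 ± 0.10, adjusted p = 0.123) and Tyk2 was not called with the dual formulation (0.27 ± 0.18, adjusted p = 0.198). Ifnar1 was higher with LP PIC in 5 of 5 mice with overlapping groups. It was called with only LP and LP PIC in the fit (adjusted p = 0.0341), and its alternatives reached 0.234. Stat2 and Irf9, which encode parts of the complex that binds the response element, rose with LP PIC by 1.57 ± 0.32 and 0.63 ± 0.12. With LP 3M the pathway genes that rose were Ifnar1 (0.55 ± 0.10) and Ifnar2 (0.26 ± 0.09), the receptor chains, Jak1 (0.21 ± 0.06) and Socs1 (3.33 ± 0.53), an inhibitor of JAK kinases. Ifnar1, Ifnar2 and Socs1 were also the 3 of 15 genes that were higher with the dual formulation than with LP PIC, and 0 were lower. Of all tested genes 23.1% were called higher and 21.4% lower in that comparison, so the 3 higher were no more than the general share. Tyk2 was called lower there under the mouse block (−0.30, adjusted p = 0.0464), without mouse 3 (0.0282) and without the dual library of mouse 3 (0.0237), and Irf3 without mouse 2 (0.0409). The call of Ifnar1 there was lost without mouse 1 or 2 (adjusted p = 0.0858 and 0.0909) and with only those conditions in the fit (0.0662). With LP 3M those of Ifnar2 and Jak1 were lost without mouse 1 (0.177 and 0.0746) or mouse 4 (0.0509 and 0.0698), and also without mouse 2 (0.0535) for Ifnar2 and mouse 3 (0.0938) for Jak1. Socs1 went from 8.99 ± 3.23 CPM in LP PIC to 60.1 ± 24.2 in LP 3M PIC, a rise of 2.81 ± 0.48, in the comparison in which 0 of the 37 effectors were called. Against LP 3M, 11 of 15 rose with the dual formulation (20.5% of all genes). With LP 3M 2 were higher and 11 lower than with LP PIC (24.4% and 22.7% of all genes). Of these, the call of Socs1 was lost under 5 alternatives (adjusted p up to 0.267, without mouse 1), that of Ifnar2 under 3 (up to 0.133, without mouse 4) and that of Tyk2 under 2 (up to 0.0576, without mouse 1).

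The 3 enzymes of the ISG15 cycle outside the members rose with PIC. Uba7, which activates ISG15, rose by 1.24 ± 0.23 with LP PIC and 1.32 ± 0.23 with the dual formulation, and Ube2l6, which carries it to the ligase, by 1.71 ± 0.28 and 1.65 ± 0.28. Usp18, which removes ISG15 and also dampens the receptor, rose by 2.40 ± 0.42 and 2.83 ± 0.42. With LP 3M none of the 3 was called (0.12 ± 0.22, 0.19 ± 0.28 and 0.60 ± 0.40). The interaction called 0 of the 15 genes (3.82% of all genes were called higher and 4.62% lower).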

How the data were processed

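RNA of 20 libraries was made into stranded, poly(A)-enriched libraries, per the labels' protocols. The deposited values are whole-number read counts per gene symbol that the authors had not normalised. Alignment and counting used build GRCm38, with STAR 2.7.11b, HTSeq 0.13.5, FastQC 0.11.1 and DESeq2 1.44.0 listed, per the submitters' processing notes. The sources used here name neither annotation nor strand setting. Entries of no gene (5.94 to 8.58% of reads outside genes, 1.14 to 1.90% ambiguous) were left out. No library pair held duplicate counts (chi-squared per degree of freedom 7.43 to 536 over 190 pairs). Genes kept by filterByExpr (minimum count 10, minimum total 15) held 99.969% of counts.

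edgeR 4.0.16 (R 4.3.3) fitted a quasi-likelihood model of condition means to the 20 libraries after TMM scaling (factors 0.945 to 1.07), two-sided, Benjamini-Hochberg adjusted over 12132 genes, called under 0.05; the biological coefficient of variation was 0.194. The error given with a log2 change is its size divided by the root of F. Differences within mice use plain library totals and a pseudocount of 0.5 CPM. Statements that libraries overlap or lie apart also use plain library totals, without TMM scaling, unless said otherwise. Mouse identifiers in the labels pair the libraries, and 30 of 30 pairs deviated together (r 0.14 to 0.54). The labels do not say whether cells of a mouse were cultured separately, so p-values measure the spread between these libraries. Alternatives were DESeq2 size factors, no filter, mouse as a block, fewer conditions, left-out mice or libraries, and DESeq2 1.42.0. The test was checked on simulated counts of independent libraries, with the same spread for every gene and no effect of mouse. That check does not cover error rates for genes whose levels differ between mice, as those of the members do. Coordinates come from GENCODE M21.

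Per-library values follow a rule: the pair of called members with the largest rise and fall in each comparison, members not called with LP PIC and members called with LP 3M. Those of Parp14 and Cmpk2 were added after their values were seen. Members and gene lists were chosen with earlier results of these data known.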

Additional observations from a re-analysis of the deposited data

Results flagged for a closer look

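Among 148 groups of 5 libraries (37 members in 4 conditions), 4 had a highest or lowest mouse that stood apart, with a gap to its neighbour above 0.71 of the group's range; chance alone would flag about 1 in 20 groups. In LP PIC, mouse 4 stood above the others for Bst2, at 1208 CPM against 634 to 757, and for Mx2, at 51.9 CPM against 19.0 to 28.1. In LP, mouse 5 stood below the others for Pml, at 45.7 CPM against 56.7 to 60.6. In the dual formulation, mouse 2 stood below the others for Phf11d, at 96.8 CPM against 169 to 187.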

How the results depend on the processing

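Over all members, comparisons and alternatives, 3274 of 3330 values kept their call, 37 gained one, 19 lost one and 0 reversed. With LP 3M, the 2 members called higher became 10 with mouse as a block, 1 without the low-count filter, 1 with only the conditions compared, 1 without the LP library of mouse 2, 4 without the LP 3M library of mouse 5, and 1 to 2 when each mouse was left out in turn. For the dual formulation against LP PIC, the 0 called became 1 higher and 1 lower with the block and 1 higher and 1 lower with only those conditions, and 0 to 1 lower with a mouse left out. The interaction's 0 lower became 2 with the block, 1 by DESeq2, 1 without the LP 3M library of mouse 5 and 0 to 1 with a mouse left out. The cause was not tested. All other counts of members stayed within 1.5 times of the value given, under every alternative run, the block included. Depth limits Apol9a most, with 2 to 23 counts per library in LP 3M.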
